A study of Mus musculus with 22 samples.

Results

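The 43 genes described here run the cell cycle or are commonly read as marks of dividing cells. They were chosen by name and not by their levels: each symbol was matched to its Ensembl identifier in the count tables, and all 43 were found among the 41388 genes listed. All 43 also passed the filter on low values, which asked for more than 1 CPM (reads of a gene scaled to the size of its library) in 2 or more libraries. The cells were stroma of mouse breast tumors, sorted by TdTomato (TdT), a red reporter protein, and by CD45, the surface protein of white blood cells encoded by *Ptprc*. This gave 4 populations: double positive, TdT single positive, CD45 single positive and double negative cells. The mice were C57BL/6, sampled at postnatal day 56, and carried either Osx-cre and Ai9, labelled wild type, or these together with a conditional knockout of *Cdh2*, labelled Cdh2-cKO;Ai9. The Ai9 allele holds the TdT reporter, so all groups, controls included, carried both Osx-cre and the reporter. Osx-cre is driven by a doxycycline-repressible *Sp7* promoter, and once Cre has acted the reporter also marks the descendants of a cell, whether or not *Sp7* is still used. The labels speak of orthotopic MMTV-BO1 tumors and the design text of subcutaneous ones, while the methods name a GFP-labelled PyMT-BO1 line whose GFP+ cells were set aside before the sort. For each genotype label the TdT single positive population had 2 libraries and the remaining populations 3 each, giving 22, from 4 inoculated wild type and 6 inoculated Cdh2-cKO mice. Which libraries came from the same mouse is not given in the sources used here.

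As background, cyclin E and its kinase help to release the E2F factors from the retinoblastoma protein before S phase. E2F then switches on the genes of DNA replication. The ring of MCM proteins is loaded on replication origins in G1 and fired in S phase, whereas the genes of G2 and mitosis are switched on later, largely through MYB, FOXM1 and the promoter elements called CHR and CCAAT. In tumor stroma these genes are used by dividing fibroblasts, endothelial cells, macrophages and lymphocytes alike, and also by tumor cells carried over from the sort.

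Between 16594228 and 26784003 reads were counted on genes per library, with a median of 18977040, of which the 43 genes took 22640 to 78007 counts, or 0.121% to 0.35%. Markers of the sorted cell types went with the sort: all 8 leukocyte markers were higher in the CD45+ populations and all 8 fibroblast markers lower. Still, 2 libraries stood apart from the others of their group. In the wild type library 2 of CD45 single positive cells, 4 B cell markers summed to 3450 CPM, against 9.03 to 16.1 CPM in the other 5 libraries of that population. The T cell markers summed there to 2336 CPM, against 28.6 to 95.4 CPM, and the macrophage markers to 3583 CPM, against 12772 to 15943 CPM. In the wild type library 3 of double negative cells *Ptprc* reached 337 CPM. Mitochondrial reads took 1.79% to 4.19% of counts in the CD45+ libraries and 1.39% to 13.7% in the CD45- libraries, highest in the double negative wild type library 2 (13.7%) and Cdh2-cKO library 1 (10.6%), and 4 erythroid markers summed to 2457 CPM in the first of these. The TdT single positive wild type library 1 held the highest CD45- level for 22.8% of all genes tested and the lowest for 22.4%. Leukocyte RNA was also high in the Cdh2-cKO library 1 of that population, where the leukocyte markers summed to 4351 CPM and the macrophage markers to 6101 CPM. In the double negative wild type library 3 these sums were 6475 and 8290 CPM. The Cdh2-cKO library 1 was kept in the fits below that leave out the 2 libraries that stood apart. *Cdh2* itself stood at 0 to 2.74 CPM in the CD45+ libraries. In TdT single positive cells *Cdh2* stood at 5.19 to 9.13 CPM in the libraries labelled wild type. It stood there at 13.1 to 17.2 CPM in those labelled Cdh2-cKO, which goes against the label. In double negative cells it stood at 4.52 to 7.47 CPM and at 12.5 to 18.4 CPM. Double negative and CD45 single positive cells lack the reporter that marks the action of Cre, so a loss of *Cdh2* need not show in them. Counts over a whole gene need not show the loss of part of it, and the deleted part is not given in the sources used here, so genotype groups are named below by their labels.

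The promoters are shown first, since genes of replication and of mitosis are known to be switched on through different elements. A promoter, from 250 bases before to 50 bases after the start of transcription, was at hand for 35 of the 43 genes in RefSeq on GRCm38.p6. Letters of E2F sites (TTTCCCGC, TTTCGCGC, TTTGCCGC or TTTGGCGC, on either strand) stood in 8 of the 35, or 22.9%, against 2.26% of 32851 promoters. The genes were *Mcm3*, *Mcm5*, *Mcm6*, *Mcm7*, *Cdt1*, *Cdc6* and *Cdk2*, which act at or before DNA replication, and *Cdk1*. The CHR letters (TTTGAA) stood in 15 of the 35, or 42.9%, against 17.9% of all promoters, and CCAAT in 26 of the 35, or 74.3%, against 37.4%. The TATAAA letters stood in 1 of the 35, *Cdc45*, or 2.86%, against 13.6%. A match describes these letters only and is no measured site of binding. An E2F match on one strand can overlap one on the other, as in *Mcm6*. Below are the 150 bases before the RefSeq start of 6 genes, with E2F, CHR and CCAAT letters of either strand in capitals. *Mcm5* and *Mcm6* stand for replication, *Mki67* and *Top2a* for mitotic genes that differed between the CD45+ and CD45- populations, and *Cdc20* and *Cdk1* for mitotic genes that did not pass that test. The stretches are, in that order, chr8:75109359-75109508 on the plus strand and, on the minus strand, chr1:128359706-128359855, chr7:135716380-135716529, chr11:99024190-99024339, chr4:118437344-118437493 and chr10:69352913-69353062.
Mcm5: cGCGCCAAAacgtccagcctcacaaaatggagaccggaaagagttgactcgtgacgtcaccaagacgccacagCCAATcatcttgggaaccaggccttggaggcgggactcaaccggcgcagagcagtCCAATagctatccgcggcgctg
Mcm6: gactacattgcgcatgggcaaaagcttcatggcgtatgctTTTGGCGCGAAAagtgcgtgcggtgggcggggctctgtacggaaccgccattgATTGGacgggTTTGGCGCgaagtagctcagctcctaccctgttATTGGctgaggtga
Mki67: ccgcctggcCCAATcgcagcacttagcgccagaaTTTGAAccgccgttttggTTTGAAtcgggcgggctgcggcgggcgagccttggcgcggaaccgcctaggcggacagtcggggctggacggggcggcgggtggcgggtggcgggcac
Top2a: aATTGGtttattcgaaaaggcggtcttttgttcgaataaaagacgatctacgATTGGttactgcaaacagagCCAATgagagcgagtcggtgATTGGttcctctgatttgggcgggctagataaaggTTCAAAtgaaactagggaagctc
Cdc20: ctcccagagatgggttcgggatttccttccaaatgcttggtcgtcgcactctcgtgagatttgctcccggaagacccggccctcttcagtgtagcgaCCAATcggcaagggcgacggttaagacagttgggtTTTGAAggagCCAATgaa
Cdk1: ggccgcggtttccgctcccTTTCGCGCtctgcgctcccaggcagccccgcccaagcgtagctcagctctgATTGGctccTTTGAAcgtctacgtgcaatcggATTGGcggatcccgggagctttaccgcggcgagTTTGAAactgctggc

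In CPM scaled by TMM size factors, the CD45+ populations carried more cell cycle RNA than the CD45- populations. Of the 43 genes, 34 were higher in CD45+ cells and 0 were lower in the quasi-likelihood test of edgeR, at an adjusted p of at most 0.05 over 15018 genes. Over all genes tested the same contrast called 63.8%, of which 32.7% of the genes tested were higher, so a call by itself is common in this comparison. The median log2 fold change of the 43 genes was 0.70, with 40 of them above 0, beside a median of 0.06 for all 15018 genes. The summed level of the 43 genes ran from 1565 to 3785 CPM, with a median of 3431, in the 12 CD45+ libraries, and from 1041 to 3214 CPM, with a median of 2054, in the 10 CD45- libraries. The TMM factors were lower in CD45+ (0.809 to 1.03) than in CD45- libraries (1.04 to 1.21), which raises CD45+ levels relative to CD45- levels. As a plain share of counts the 43 genes took 0.158% to 0.350% in CD45+ and 0.121% to 0.326% in CD45- libraries. How much of the difference rests on the factors was not tested. In bulk RNA, more dividing cells and more cell cycle RNA in each cell cannot be told apart. The plot of all 43 genes by library shows the difference as a step between CD45+ and CD45- libraries, with the same 2 libraries breaking it.

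**Figure D1:**
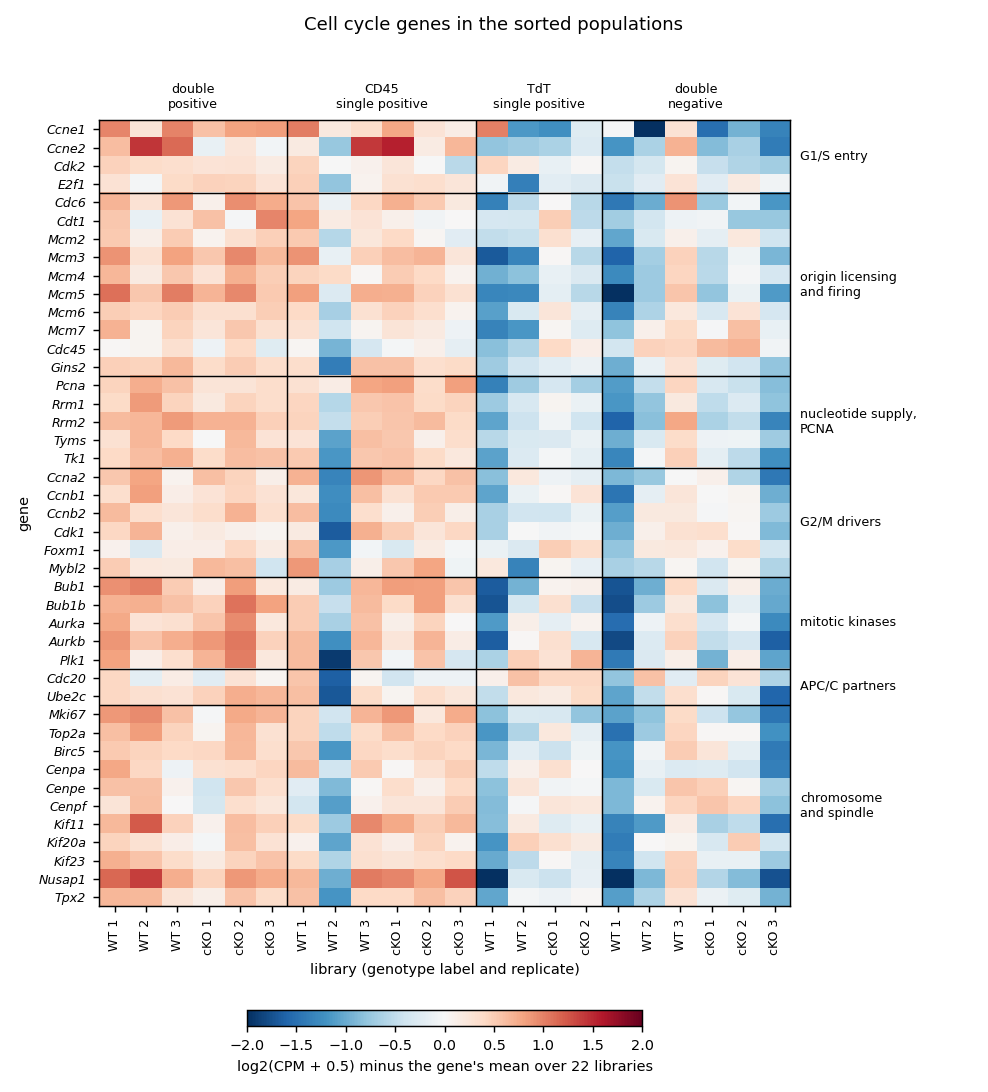
Level of each of the 43 genes (rows, by role) in each of the 22 libraries (columns, by population), as log2(CPM + 0.5) minus the mean of that gene over all libraries; the color scale ends at -2 and 2. Red fills most of the CD45+ columns, except the CD45 single positive library WT 2. That library was the lowest CD45+ library for 39 of 43 genes, beside 22.3% of all genes tested. DN WT 3 was the highest CD45- library for 22 of 43, beside 18.2% of all genes tested.

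RNA of all 4 genes of the G1 to S step was higher in CD45+ cells over all 22 libraries. In wild type libraries alone *Ccne2* passed (edgeR adjusted p 0.0496) and *Ccne1* (0.33), *Cdk2* (0.25) and *E2f1* (0.26) did not, and in Cdh2-cKO libraries alone *Cdk2* did not (adjusted p 0.058). *Ccne1* (ENSMUSG00000002068, chr7:38097984-38107534 on GRCm38), which encodes cyclin E1, ran from 5.19 to 9.99 CPM, median 7.76, in CD45+ libraries and from 0.716 to 9.90 CPM, median 2.00, in CD45- libraries. The highest CD45- value of *Ccne1* was that of the TdT single positive wild type library 1, so the groups overlapped. Its log2 fold change was 1.24 (SE 0.33, adjusted p of the edgeR quasi-likelihood test 0.0034). *Ccne2*, for cyclin E2, ran from 15.7 to 79.4 CPM, median 36.7, against 9.84 to 43.8 CPM, median 16.5, and rose by the same 1.24 on the log2 scale (SE 0.28, adjusted p 0.00087). *Cdk2*, the kinase partner of cyclin E, and *E2f1* differed less, with log2 fold changes of 0.34 (SE 0.11) and 0.48 (SE 0.17). Per length, the cyclin E genes were the low members of this group: *Ccne1* averaged 2.82 RPKM in CD45+ libraries, *Ccne2* 12.6, *Cdk2* 12.8 and *E2f1* 11.4.

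Of the 10 genes that license and fire replication origins, 9 passed the test, all higher in CD45+ cells. *Mcm5* (ENSMUSG00000005410, chr8:75109528-75128439), a subunit of the replicative helicase, ran from 72.6 to 189 CPM, median 143, in CD45+ libraries. In CD45- libraries *Mcm5* ran from 21.5 to 129 CPM, median 51.8, where the double negative wild type library 3 was highest and the next library stood at 79.8 CPM. Its log2 fold change was 1.33 (SE 0.24, adjusted p 0.00014). *Mcm3* (ENSMUSG00000041859, chr1:20802968-20820312), another subunit, ran from 100 to 215 CPM, median 172, against 34.3 to 154 CPM, median 72.3, a log2 fold change of 1.25 (SE 0.21, adjusted p 7.4e-05). The other 4 subunits of the ring rose less, from 0.43 for *Mcm2* (SE 0.16) through 0.53 for *Mcm7* (SE 0.15) and 0.60 for *Mcm6* (SE 0.18) to 0.84 for *Mcm4* (SE 0.17). The difference between the subunits was not tested. *Cdc6*, *Cdt1* and *Gins2*, which load and start the helicase, rose by 1.004, 0.63 and 0.71. *Cdc45*, which joins the helicase when it fires, was the exception: it ran from 14.8 to 37.6 CPM in CD45+ and from 15.8 to 46.2 CPM in CD45- libraries, a log2 fold change of -0.11 (SE 0.15, adjusted p 0.53). *Mcm7* and *Cdc45* overlap *Cops6* and *Ufd1* on the opposite strand, and the libraries were not stranded, so reads of such pairs cannot be assigned by strand.

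The 5 genes of nucleotide supply and the replication clamp were all higher in CD45+ cells. *Pcna*, the clamp, had the smallest adjusted p of the 43 genes. It ran from 80.3 to 129 CPM, median 96.2, in CD45+ libraries and from 28.3 to 98.1 CPM, median 48.7, in CD45- libraries, with a log2 fold change of 1.07 (SE 0.16, adjusted p 2.4e-05). The CD45- library at 98.1 CPM was again the double negative wild type library 3, and the next below it stood at 58.4 CPM. *Rrm2* and *Rrm1*, the subunits of ribonucleotide reductase, rose by 0.999 (SE 0.23) and 0.79 (SE 0.17). *Tk1* and *Tyms*, which make thymidine nucleotides, rose by 0.78 and 0.59. Per length *Rrm2* was the highest of the 43 genes in the CD45+ libraries, at 85 RPKM against 42.8 RPKM in CD45- libraries, followed there by *Rrm1* at 60.3 and *Ccnb2* at 59 RPKM.

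The drivers of G2 and mitosis were split. *Ccna2*, *Ccnb1* and *Ccnb2*, for cyclins A2, B1 and B2, were higher by 0.82 (SE 0.25), 0.56 (SE 0.23) and 0.58 (SE 0.20), and the MYB factor *Mybl2* by 0.79 (SE 0.32), at levels of no more than 3.43 CPM. *Ccnb1* and *Mybl2* lie close to the threshold, with adjusted p values of 0.044 and 0.039, and lost the call under other size factors, without the filter on low counts and without any of 16 and 13 single libraries. Under these alternatives 4 further genes lost it: *E2f1* without the TdT single positive wild type library 2 (edgeR adjusted p 0.056), *Aurka* without the wild type library 1 of that population (0.066), *Birc5* without that library (0.065) or without the Cdh2-cKO library 1 (0.055), and *Mcm2* with upper quartile factors (0.058) or without the Cdh2-cKO library 2 (0.074). *Cdk1*, the kinase that these cyclins activate, ran from 40.5 to 213 CPM, median 151, in CD45+ libraries and from 65.6 to 163 CPM, median 127, in CD45- libraries. The log2 fold change of *Cdk1* was 0.37 (SE 0.23, adjusted p 0.17), and its lowest value of all 22 libraries was that of the CD45 single positive wild type library 2. Without that library *Cdk1* passed the test, at 0.48 (edgeR adjusted p 0.0197). *Foxm1*, a factor for mitotic genes, stood at 4.18 to 15.3 CPM against 5.47 to 14.1 CPM, a log2 fold change of -0.02 (SE 0.19), whose sign turned under several alternatives.

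Among the mitotic kinases and checkpoint proteins 4 of 5 were higher. *Bub1b* and *Bub1*, which hold cells until chromosomes are attached, rose by 1.11 (SE 0.24, adjusted p 0.00058) and 1.05 (SE 0.25), and the Aurora kinases *Aurkb* and *Aurka* by 0.94 and 0.67. *Plk1* ran from 5.56 to 46.1 CPM in CD45+ and from 8.04 to 36.2 CPM in CD45- libraries and did not pass, at 0.45 (SE 0.29, adjusted p 0.19). Neither of the 2 partners of the anaphase-promoting complex passed: *Ube2c*, which hands ubiquitin to its targets, differed by 0.46 (SE 0.25, adjusted p 0.12), and *Cdc20*, which chooses them, by -0.24 (SE 0.24, adjusted p 0.39). *Cdc20* (ENSMUSG00000006398, chr4:118432901-118437352) ran from 3.67 to 18.5 CPM, median 12.2, in CD45+ libraries and from 6.99 to 18.9 CPM, median 15.9, in CD45- libraries. It overlaps *Elovl1* on the opposite strand, which had 105691 counts over all libraries beside 5727 of *Cdc20*. Without the CD45 single positive wild type library 2, *Plk1* (0.57, edgeR adjusted p 0.037) and *Ube2c* (0.57, adjusted p 0.014) passed.

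Of the 11 genes of chromosomes and the spindle, 8 were higher. *Nusap1* (ENSMUSG00000027306, chr2:119618298-119651244), which bundles spindle microtubules, showed the largest change of the 43 genes. It ran from 32 to 167 CPM, median 113, in CD45+ libraries and from 11.9 to 88.9 CPM, median 38.5, in CD45- libraries, a log2 fold change of 1.51 (SE 0.33, adjusted p 0.00066). *Mki67* (ENSMUSG00000031004, chr7:135689788-135716379), the gene of the Ki-67 antigen, was higher by 1.14 (SE 0.20, adjusted p 0.00012). In the double positive libraries *Mki67* stood at 134, 140 and 110 CPM (wild type) and 71.4, 124 and 117 CPM (Cdh2-cKO), and in the CD45 single positive libraries at 99.0, 55.6 and 118 CPM (wild type) and 133, 84.7 and 122 CPM (Cdh2-cKO). In the TdT single positive libraries it stood at 41.2 and 58.9 CPM (wild type) and 57.9 and 41.9 CPM (Cdh2-cKO), and in the double negative libraries at 34.4, 41.4 and 95.2 CPM (wild type) and 54.6, 42.5 and 26.0 CPM (Cdh2-cKO). Every CD45+ value of *Mki67* but that of the CD45 single positive wild type library 2 thus lay above every CD45- value but that of the double negative wild type library 3. *Kif11*, a spindle motor, rose by 1.05 (SE 0.24), *Top2a*, which untangles DNA, by 0.79 (SE 0.22), and *Kif23*, *Tpx2*, *Birc5* and *Cenpa* by 0.62 to 0.70. The 3 that did not pass were the kinetochore genes *Cenpe* (0.23, SE 0.20) and *Cenpf* (0.10, SE 0.20) and the motor *Kif20a* (0.23, SE 0.23).

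**Figure D2:**
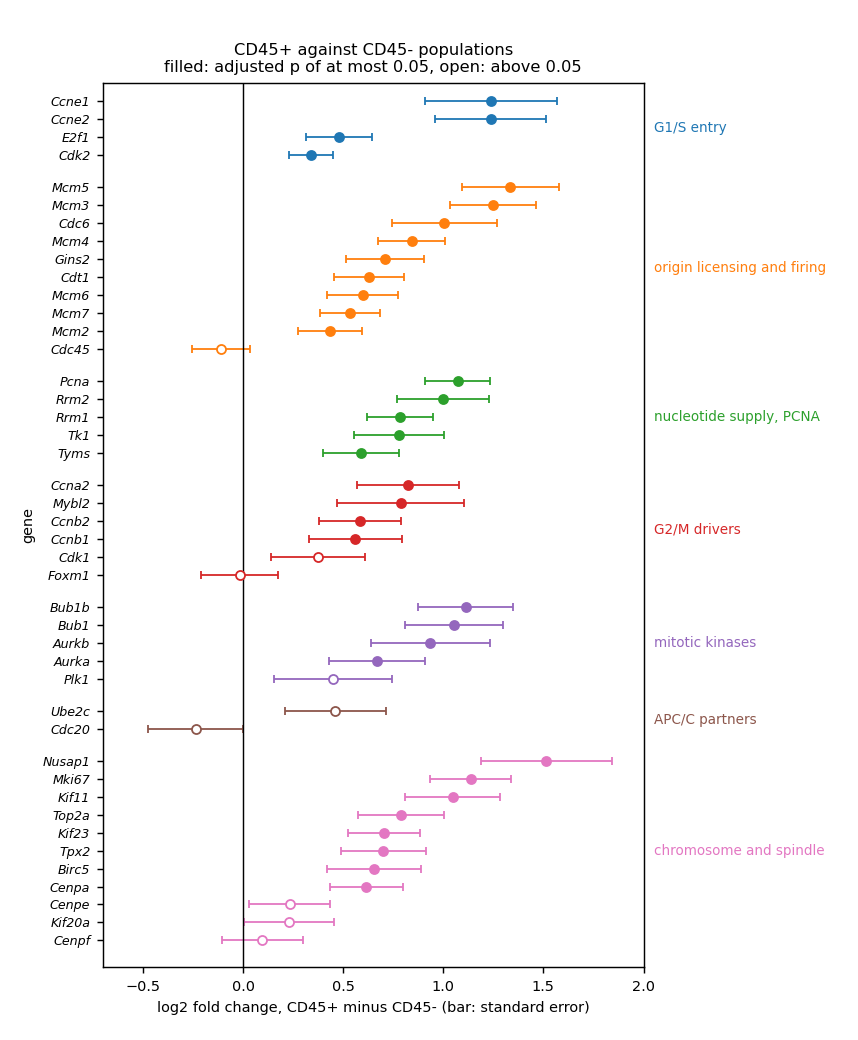
Log2 fold change of CD45+ minus CD45- populations for each of the 43 genes, grouped by role, with the standard error as bars; filled points passed the edgeR test at an adjusted p of at most 0.05. The replication genes lie to the right of 0 except *Cdc45*, and the 9 open points are *Cdc45*, *Cdk1*, *Foxm1*, *Plk1*, *Ube2c*, *Cdc20*, *Cenpe*, *Kif20a* and *Cenpf*.

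The promoter letters of the genes that passed and of those that did not are given here as a description without a test. Of the 28 genes that passed and had a promoter, 9 (32.1%) held the CHR letters, and of the 7 that did not pass, 6 did. The E2F letters stood in 7 of the 28 (25%) and in 1 of the 7, *Cdk1*, and CCAAT in 19 of the 28 (67.9%) and in all 7. The 7 are few, and apart from *Cdc45* they belong to the roles of G2 and mitosis. As shares of the summed level of the 43 genes, the G2 and mitosis drivers took a median of 9.93% in CD45+ and 12.01% in CD45- libraries, with ranges that overlapped (6.10% to 11.4% and 9.73% to 14.6%).

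The count depended on the fold asked for and on the libraries used. Of the 43 genes, 11 passed with a change of at least 1 on the log2 scale, beside 37.6% of all genes tested in either direction. In the wild type libraries alone 12 genes passed, beside 38.2% of all genes, with a median log2 fold change of 0.74 over the 43 genes, and in the Cdh2-cKO libraries alone 26, beside 58.3%, with a median of 0.59. Leaving out both libraries that stood apart gave 37 genes, beside 67.3%. Without the double negative wild type library 2 it was 32, without the double negative Cdh2-cKO library 1 it was 33 and without the TdT single positive wild type library 1 it was 31. With all 22 libraries, for 0 of the 43 genes did the CD45+ and CD45- levels not overlap, whereas 3.71% of all genes tested were higher in CD45+ cells without overlap. Without the 2 libraries that stood apart it was 18 of 43 genes, among them *Mki67*, *Mcm3*, *Mcm5*, *Pcna* and *Rrm2*, beside 12% of all genes tested. Within the Cdh2-cKO libraries it was 23 of 43, beside 17.6%, and within the wild type libraries 0 of 43, beside 6.95%. The 2 libraries left out held the lowest CD45+ level for 39 and the highest CD45- level for 22 of the 43 genes. Leaving them out therefore favors both a gap and more calls, and is no separate support for the difference.

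Other genes of the cycle, outside the 43, were mostly higher in CD45+ cells too in S phase and mitosis and were split in G1. Of 22 further S phase genes, 14 rose and 1 fell in CD45+ cells, led by the activator *E2f2* (log2 fold change 1.98), the histone chaperone *Asf1b* (1.64) and the licensing inhibitor *Gmnn* (1.44), while *E2f3* was lower. Of 28 further genes of G2 and mitosis, 22 were higher and 1, *Anln*, lower, led by the separase *Espl1* (1.86), *Cdca3* (1.13) and *Ccnf* (1.08). Of 17 genes that control G1, 16 were tested, 7 higher and 5 lower. Over all genes tested 32.7% were higher and 31.1% lower, so calls in both directions, as in G1, are common in this contrast. The kinase inhibitor *Cdkn1c* (-3.68) and the retinoblastoma gene *Rb1* (1.60) changed most, followed by *Cdkn2b* (-1.32). *Ccnd1* (-0.79) and *Cdk4* (-0.63), which start G1 progress, were lower in CD45+ cells, and *Cdk6* (0.59), the related kinase, was higher. The inhibitors *Cdkn1a* (0.82) and *Cdkn1b* (0.81) were higher, and *Cdkn2a* stood at 0 to 0.548 CPM in all libraries and was not tested.

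The plot of 4 genes by population and genotype shows the step between the sorts for *Mki67* and *Mcm5* and overlapping levels for *Cdc20*, with *Cdk1* between them.

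**Figure D3:**
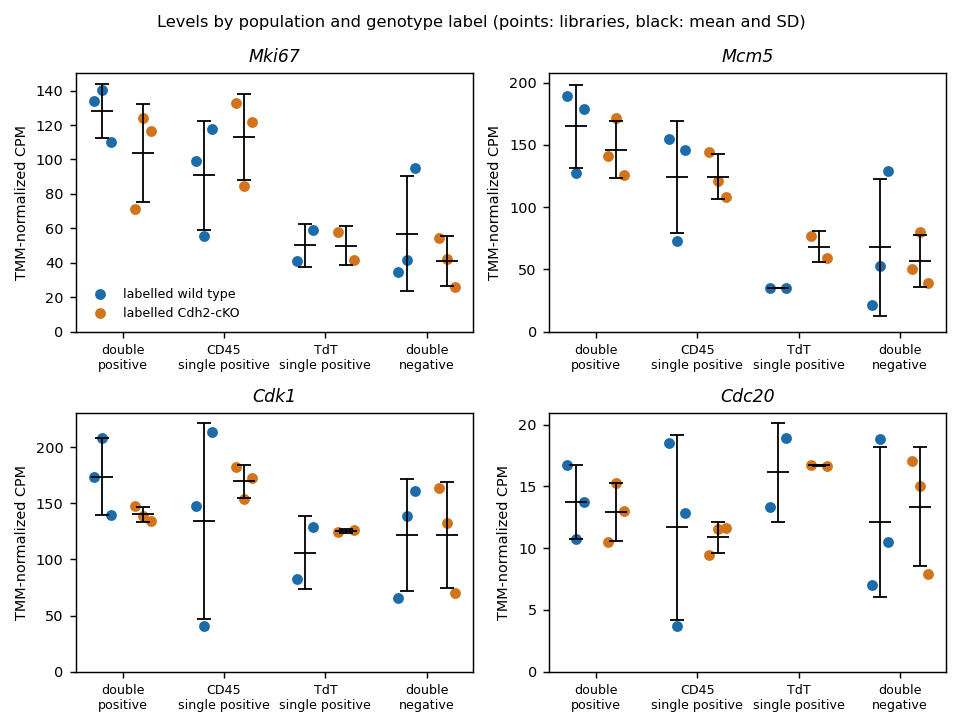
TMM-normalized CPM of *Mki67*, *Mcm5*, *Cdk1* and *Cdc20* (y axes, from 0) in the 4 populations; each point is a library, colored by genotype label, with the mean and SD of each group in black (n = 2 for TdT single positive, 3 for the others). *Mki67* and *Mcm5* points of CD45+ cells lie above those of CD45- cells except for 1 library on each side, and *Cdc20* points overlap.

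The keratins *Krt8* and *Krt18* were followed in the same libraries as a measure of epithelial, and so possibly tumor cell, RNA. They went the other way from the cell cycle genes: *Krt8* was lower in CD45+ cells by -3.41 (SE 0.43, adjusted p 3.3e-06) and *Krt18* by -3.51 (SE 0.46, adjusted p 5e-06) on the log2 scale. Summed, they ran from 21.7 to 218 CPM in CD45+ libraries and from 26.5 to 1983 CPM in CD45- libraries. Of the 11 epithelial markers 6 were tested, of which 4 were lower in CD45+ cells and 2 higher. The 2 were *Epcam* and *Cdh1*, and the whole list summed to 133 to 470 CPM in CD45+ and to 41.6 to 1998 CPM in CD45- libraries. *Epcam*, a defining epithelial marker, was at 0 in 5 of the 10 CD45- libraries and at 2.04 CPM or less in the rest, and *Elf3* and *Esrp1* were at 0 in most libraries of both kinds. High keratin counts stood beside little *Epcam* in the same CD45- libraries.

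Library by library, no relation of *Mki67* to the keratins passed the test. Here and for *Ptprc* below, the permutations ran over all libraries of a sort, pooling 2 populations and both genotype labels. Their p values thus do not separate differences between these groups from differences between libraries. The CD45- library with the least keratin, TdT single positive wild type 1 at 26.5 CPM, had a summed cell cycle level of 1293 CPM, the second lowest of the 10, and the one with the most, double negative Cdh2-cKO 2 at 1983 CPM, had 2303 CPM. Across the 10 CD45- libraries the log2 level of *Mki67* and the log2 summed keratin level had a Pearson r of -0.035 (permutation p = 0.853, adjusted over 4 relations 0.853) and a Spearman rho of -0.10 (p = 0.785 by permutation, adjusted 0.785). Without the 2 libraries farthest from the median keratin level, r was -0.40. Across the 12 CD45+ libraries r was -0.25 (permutation p = 0.427, adjusted 0.569) and rho -0.24 (permutation p = 0.457, adjusted 0.61), and r was -0.21 without the 2 farthest.

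With *Ptprc* in place of the keratins the relation in CD45- libraries was positive. *Ptprc* ran from 2.45 CPM (TdT single positive wild type 1) to 337 CPM (double negative wild type 3), and the latter had the highest summed cell cycle level of the CD45- libraries, 3214 CPM, beside 8290 CPM of 6 macrophage markers. *Mki67* and *Ptprc* had r = 0.70 (permutation p = 0.0231, adjusted 0.0922) and rho = 0.71 (permutation p = 0.0262, adjusted 0.105) over these 10 libraries, so neither passed after adjustment. Without the 2 farthest libraries r was 0.58 (permutation p = 0.135). In CD45+ libraries the sign of r rested on 2 libraries: it was -0.48 (permutation p = 0.209, adjusted 0.418), with rho 0.36 (permutation p = 0.258), and 0.72 without CD45 single positive wild type 2 and double positive wild type 1 (permutation p = 0.0141, adjusted 0.0562).

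**Figure D4:**
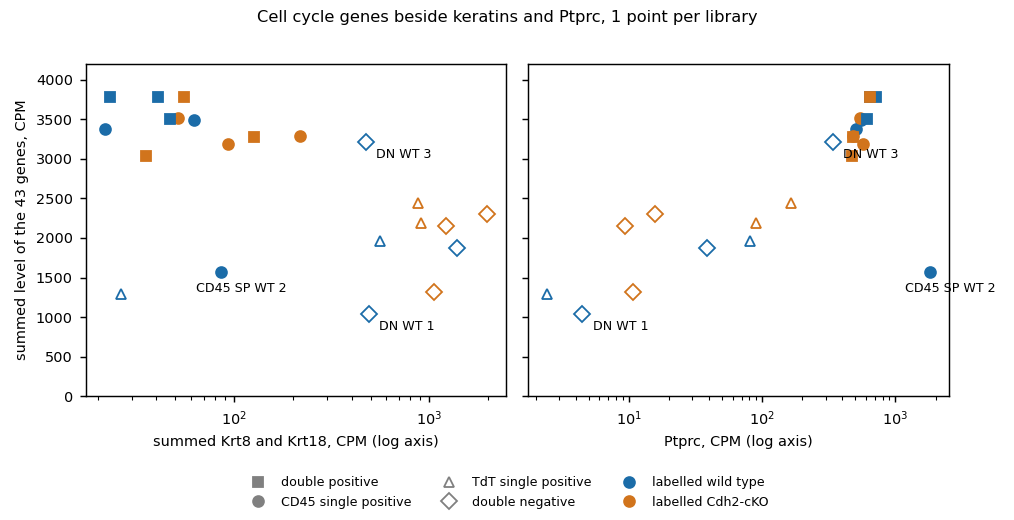
Summed level of the 43 genes in CPM (y axis, from 0) against the summed level of *Krt8* and *Krt18* (left, log axis) and against *Ptprc* (right, log axis), 1 point for each of the 22 libraries, with CD45+ populations filled, CD45- populations open and color for the genotype label. CD45- libraries reach 1983 CPM of keratin at 2303 CPM of the 43 genes, and on the right the double negative library WT 3, at 337 CPM of *Ptprc*, lies beside the CD45+ libraries, while the CD45 single positive library WT 2 lies apart at 1821 CPM.

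With the log2 summed keratin level as a covariate, which itself differed between the sorts, the median log2 fold change of the 43 genes was 0.80 and 38 were above 0. The median standard error grew from 0.216 to 0.479, and 3 genes passed, *Pcna* (1.21, adjusted p 0.019), *Bub1b* (1.74, adjusted p 0.017) and *Mcm3* (1.28, adjusted p 0.044), beside 30.9% of all genes. Whether carried-over tumor cells or leukocytes took part in any of these levels was not tested.

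Within the CD45- sort, TdT single positive and double negative cells differed in none of the 43 genes past the threshold. The edgeR test called 0 of 43, beside 1.96% of all genes tested (1.27% higher and 0.699% lower in TdT single positive cells), with 3 of the 43 at an unadjusted p under 0.05 (6.98%, beside 19% of all genes); limma called 0 and DESeq2 called 2 (beside 6.54% of all genes). The median log2 fold change was 0.03, with 22 of 43 above 0, and 0.07 over all genes. The 3 smallest p values belonged to *Cdk2*, *Mcm7* and *Cdc45*. *Cdk2* stood at 36.6 and 30.4 CPM (wild type) and 24.3 and 27.5 CPM (Cdh2-cKO) in TdT single positive cells, and at 19.4, 21.03 and 28.2 CPM (wild type) and 19.6, 17.6 and 16.5 CPM (Cdh2-cKO) in double negative cells. For *Cdk2* the log2 fold change was 0.54 (SE 0.16, adjusted p 0.08), higher in TdT single positive cells. *Mcm7* stood at 28.3 and 31.96 CPM (wild type) and 73.5 and 59.8 CPM (Cdh2-cKO) against 41.1, 77.2 and 93.8 CPM (wild type) and 70.6, 110 and 64.9 CPM (Cdh2-cKO), a log2 fold change of -0.76 (SE 0.22, adjusted p 0.08). For *Cdc45* the log2 fold change was -0.57 (SE 0.22, adjusted p 0.18), for *Mki67* 0.05 (SE 0.30, adjusted p 0.95) and for *Mcm5* -0.34 (SE 0.35, adjusted p 0.63). DESeq2 called *Mcm7* (-0.77, adjusted p 0.022) and *Cdk2* (0.53, adjusted p 0.027). Without the double negative wild type library 3 the median became 0.29, with 37 of 43 above 0, and *Cdk2* passed (0.63, adjusted p 0.036). Without the double negative wild type library 1 *Mcm7* passed instead (-0.90, adjusted p 0.026), with 14 of 43 above 0. The 8 leukocyte markers summed to 215 to 4351 CPM in TdT single positive and to 188 to 6475 CPM in double negative libraries, and all 8 had a log2 fold change above 0 with none past the test. All 8 fibroblast markers were above 0 as well (median 1.14, 4 at an unadjusted p under 0.05, none past the test). Of 3 erythroid markers tested all were below 0 (median -4.68) and 1, *Alas2*, passed (edgeR adjusted p 0.047), with sums of 0.97 to 84.8 CPM in TdT single positive and 1.29 to 2457 CPM in double negative libraries. The part of these markers in the values of the 43 genes was not tested.

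Between double positive and CD45 single positive cells none of the 43 genes passed either. The edgeR test called 0 of 43, beside 0.00666% of all genes (1 gene), with 0 of the 43 at an unadjusted p under 0.05, and limma and DESeq2 also called 0. The log2 fold changes ran from -0.17 to 0.47, with 39 of 43 above 0 and a median of 0.22, where all genes had a median of -0.06. *Cdk2* (0.26, SE 0.14), *Mcm7* (0.33, SE 0.20) and *Cdc45* (0.29, SE 0.20) had the smallest p values, each with an adjusted p of 0.9999. *Mki67* differed by 0.19 (SE 0.26) and *Mcm5* by 0.32 (SE 0.31). Without the CD45 single positive wild type library 2 the median fell to 0.09, with 31 of 43 above 0. The effect of TdT itself differed between CD45+ and CD45- cells for 0 of 43 genes (edgeR, 2 at an unadjusted p under 0.05, limma and DESeq2 0), beside 0.00666% of all genes. In all 31 of 43 were above 0, and 17 without the double negative wild type library 3. The 2 were *Mcm7* (1.09, SE 0.30, adjusted p 0.40) and *Cdc45* (0.86, SE 0.30, adjusted p 0.46), followed by *Mcm3* (0.66, SE 0.42). For *Mki67* the difference was 0.14 (SE 0.40) and for *Mcm5* 0.65 (SE 0.47).

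Between the genotype labels none of the 43 genes passed the test in any population. The edgeR, limma and DESeq2 tests each called 0 in TdT single positive, double positive, CD45 single positive and double negative cells and in the mean of the 4 populations. Over all genes 0.00666% were called in TdT single positive cells and 0% in the other 4 comparisons. The counts at an unadjusted p under 0.05 were 4, 1, 0, 0 and 3 of 43, in that order, or 9.3%, 2.33%, 0%, 0% and 6.98%, beside 10.3%, 3.34%, 9.77%, 9.61% and 11.4% of all genes.

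In TdT single positive cells, with 2 libraries for each label, 40 of 43 genes had higher levels in those labelled Cdh2-cKO, with a median log2 fold change of 0.47, where all genes had 0.00. *Mcm7* stood at 28.3 and 31.96 CPM in wild type and at 73.5 and 59.8 CPM in Cdh2-cKO libraries, a log2 fold change of 1.15 (SE 0.34, adjusted p 0.32). *Cdc45* stood at 15.8 and 18.6 CPM against 37.7 and 31.4 CPM (1.01, SE 0.34, adjusted p 0.37), and *Mcm3* at 34.3 and 44.2 CPM against 113 and 75.3 CPM (1.26, SE 0.49, adjusted p 0.41). The fourth with an unadjusted p under 0.05 was *Bub1* (1.38, SE 0.56). *Mcm5* differed by 0.95 (SE 0.55, adjusted p 0.57) and *Mki67* by 0.00 (SE 0.46). The markers of other cells differed between the same libraries: the 8 leukocyte markers summed to 215 and 1804 CPM in the wild type and to 4351 and 2025 CPM in the Cdh2-cKO libraries, the keratins to 26.5 and 556 against 875 and 907 CPM, and the 8 fibroblast markers to 60187 and 32362 against 13897 and 28816 CPM. With the summed macrophage markers as a covariate, an alternative chosen after seeing the data, 11 of 43 genes were above 0, with a median of -0.25 (all genes 0.01), and 0 passed. The part of these markers in the values of the 43 genes was not tested.

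In the other populations the medians of the 43 genes were smaller and changed sign. In double positive cells 15 were above 0 (median -0.09; 5 without the Cdh2-cKO library 2), and the smallest p values were those of *Ccne2* (-1.09, SE 0.51), *Cdt1* (0.33, SE 0.32) and *Pcna* (-0.30, SE 0.30), each with an adjusted p of 1. *Ccne2* stood at 41.5, 73.2 and 59.6 CPM in wild type and at 24.1, 31.8 and 25.9 CPM in Cdh2-cKO double positive libraries. These did not overlap, as was so for 4 of the 43 genes (9.3%) and for 12.8% of all genes tested in that comparison. In CD45 single positive cells 34 were above 0 (median 0.24), led by *Cenpf* (0.73, SE 0.38, adjusted p 0.54), *Cenpe* (0.61, SE 0.38) and *Cdt1* (-0.44, SE 0.32). Without the wild type library 2 of that population 13 were above 0, with a median of -0.07. In double negative cells 16 were above 0 (median -0.08), with *Ccne1* (-1.13, SE 0.62, adjusted p 0.67), *Cdk2* (-0.36, SE 0.20) and *Ccne2* (-0.81, SE 0.51) first by p. Without the wild type library 3 of that population 39 were above 0, with a median of 0.37, and without the wild type library 1 it was 2, with a median of -0.38, so that the sign of the median there turned with single libraries. All 8 leukocyte markers (median -3.38) and all 6 macrophage markers (median -3.79) were below 0 there at an unadjusted p under 0.05, and all 3 muscle markers tested were above 0 (median 2.44), with none past the test. The leukocyte markers summed to 188, 1029 and 6475 CPM in the wild type and to 338, 368 and 432 CPM in the Cdh2-cKO double negative libraries, and their part in the values was not tested. *Mki67* differed by -0.30 (SE 0.37), 0.32 (SE 0.37) and -0.47 (SE 0.38) in double positive, CD45 single positive and double negative cells, and *Mcm5* by -0.17, 0.00 and -0.26 (SE 0.44 each).

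Averaged over the 4 populations, 38 of 43 genes were above 0 with a median of 0.11 (all genes -0.05). *Cdk2* (-0.28, SE 0.11, adjusted p 0.36), *Cdc45* (0.37, SE 0.15, adjusted p 0.38) and *Mcm7* (0.35, SE 0.15, adjusted p 0.40) had the smallest p values, *Mki67* stood at -0.12 (SE 0.20) and *Mcm5* at 0.13 (SE 0.24). The genotype effect differed between CD45+ and CD45- cells for 0 of 43 genes by edgeR, limma and DESeq2, beside 0% of all genes, with 1 gene, *Mcm7* (-0.66, SE 0.29, adjusted p 0.63), at an unadjusted p under 0.05. Next by p were *Cdc45* (-0.51, SE 0.29) and *Ccne1* (0.998, SE 0.64), and *Mki67* (0.25, SE 0.40) and *Mcm5* (-0.43, SE 0.47) lay within 1 SE of 0. Of the 43 genes 14 were above 0, and 2 without the double negative wild type library 3 but 24 without the wild type library 1.

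**Figure D5:**
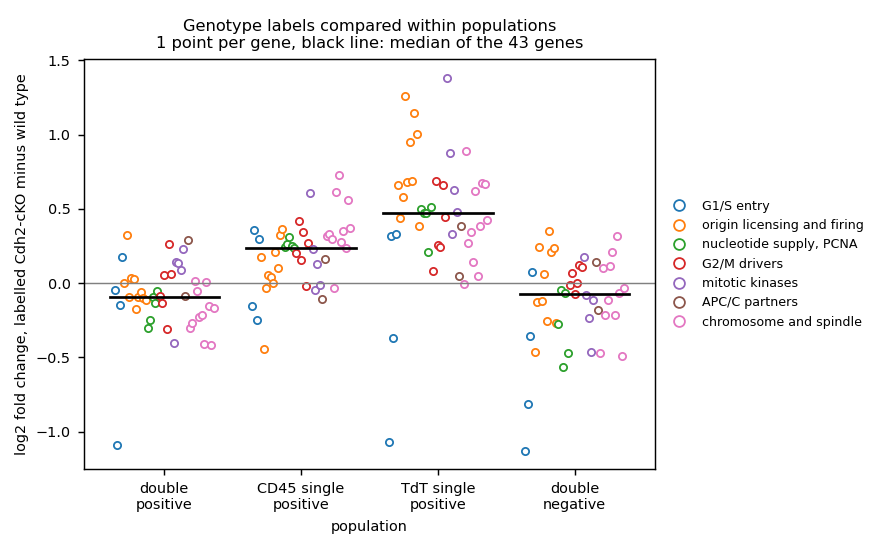
Log2 fold change of libraries labelled Cdh2-cKO minus wild type (y axis) for each of the 43 genes, in each of the 4 populations (x axis), colored by role, with the median as a black line. The medians were -0.09, 0.24, 0.47 and -0.08 from left to right, and no point passed the edgeR test.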

How the data were processed

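RNA of 22 libraries was made into cDNA with a SMARTer Ultra Low kit, which does not mark strand. Per the labels, the authors aligned reads with STAR 2.0.4b to GRCm38, assigned uniquely aligned, unambiguous reads to Ensembl genes with Subread featureCounts 1.45, and deposited a count, CPM and RPKM for each of 41388 genes. The deposited CPM and RPKM follow from the deposited counts (largest relative deviations 5.1e-15 and 5.1e-14) and were not tested. Counts ran from 16594228 to 26784003 per library. In the re-analysis (R 4.3.3), 355 rRNA genes were left out, 15018 genes passed a filter of over 1 CPM in 2 or more libraries, and 8 group means were fitted with edgeR 4.0.16 (robust quasi-likelihood, TMM factors). A call meant an adjusted p (Benjamini-Hochberg, over all genes tested) not above 0.05, without a fold threshold. The script was tested on simulated counts. CPM values in the text use TMM library sizes, and log2 of a summed CPM has 0.5 added. Relations used 2-sided permutation tests with 100000 resamples.

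The members and lists were chosen with earlier results of these data known. All members are accounted for. Named in full are the 5 called members with the largest change in each comparison, or, where none was called, the 3 with the smallest p, with *Mki67* and *Mcm5* throughout, the checks *Krt8*, *Krt18*, *Ptprc* and *Cdh2*, the 3 called genes with the largest change from each pathway list, and 6 G1 genes. Alternatives were limma 3.58.1 (voom with quality weights), DESeq2 1.42.0, other size factors, no filter, a fold threshold, covariates, a replicate block, each genotype label alone and leaving out libraries. The labels call the libraries biological replicates, but p-values measure the spread between these libraries, which may share mice. Of 30 same-numbered pairs 11 had correlated deviations over 0.1 (median 0.062, highest 0.65). Of 60 pairs of unlike number it was 9 (median -0.03, highest 0.47). In groups of 2 libraries the deviations mirror each other, so these values do not settle whether the numbers pair libraries. Replicate numbers were not taken as pairs in the main fit.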

Additional observations from a re-analysis of the deposited data

Results flagged for a closer look

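Of 10 values examined in 40 groups of 4 or 6 libraries, 6 stood apart by Dixon's test at the 95% level, where chance gives about 1 in 20. The summed level of the 43 genes in the CD45 single positive wild type library 2 was 1565 CPM, against 3182 to 3512 CPM in the other 5 libraries. In the same library *Ptprc* stood at 1821 CPM, against 482 to 575 CPM. In the double negative wild type library 3 *Ptprc* stood at 337 CPM, against 4.46 to 38.6 CPM, and *Ccne2* at 43.8 CPM, against 9.84 to 17.2 CPM. The summed keratins *Krt8* and *Krt18* stood at 126 CPM in the double positive Cdh2-cKO library 3, against 23.2 to 55.2 CPM, and at 218 CPM in the CD45 single positive Cdh2-cKO library 2, against 21.7 to 93.4 CPM.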

How the results depend on the processing

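Of the values recomputed under the alternatives, 2735 kept their direction and side of the threshold, 123 lost and 18 gained the call, and 58 changed sign. The number of the 43 genes called in CD45+ against CD45- cells was 34 and became 11 with a fold threshold, 3 with the keratin covariate, 12 in wild type and 26 in Cdh2-cKO libraries alone (beside 37.6%, 30.9%, 38.2% and 58.3% of all genes), and lay between 31 and 37 when single libraries were left out. For TdT single positive against double negative cells it was 0 and became 2 with DESeq2, 1 with upper quartile factors, 1 with a *Ptprc* covariate, 2 without the 2 libraries that stood apart, 3 with the macrophage covariate, chosen after seeing the data (beside 6.54%, 2.39%, 7.23%, 10.1% and 9.51% of all genes), and 0 to 1 without single libraries (1 without the double negative wild type library 1 or 3). The TdT difference between sorts gained 1 gene with the macrophage covariate (beside 0.899%). Replicate numbers were not shown to pair libraries, and with the replicate block 34 genes were called in CD45+ against CD45- cells and 0 in every other comparison.

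Single genes changed sign as follows, on the log2 scale. In CD45+ against CD45- cells *Foxm1* became 0.022 with limma, 0.052 without both libraries and 0.11 in wild type alone (-0.14 to 0.075 without single libraries), *Cdc45* 0.14 in wild type alone, *Cenpf* -0.041 in Cdh2-cKO alone, and with the keratin covariate *Ccne1* -0.063, *E2f1* -0.22, *Mybl2* -0.55 and *Cdc20* 0.072. In TdT single positive against double negative cells *Mki67* became -0.058 with upper quartile factors, -0.066 with *Ptprc*, -0.19 in wild type alone and -0.17 with macrophage markers (-0.092 to 0.34 without single libraries), and *Mcm5* 0.10 without both libraries and 0.26 in Cdh2-cKO alone (-0.55 to 0.10). In double positive against CD45 single positive cells *Mki67* became -0.11 in Cdh2-cKO alone. For the TdT difference *Mki67* became -0.25 with limma, -0.28 without both libraries and -0.39 in Cdh2-cKO alone (-0.14 to 0.28), where *Mcm5* was -0.018 and *Mcm3* -0.024.

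Between genotype labels, *Mki67* in TdT single positive cells became 0.0013 without the filter and 0.018 with keratins (-0.26 to 0.27), and *Mcm5* -0.12 with macrophage markers. In CD45 single positive cells *Mcm5* became -0.23 with limma, -0.27 without both libraries and -0.12 with macrophage markers (-0.27 to 0.19). In double negative cells *Mcm5* became 0.14 with limma, 0.41 with *Ptprc*, 0.62 without both libraries and 0.66 with macrophage markers (-0.68 to 0.62), *Mki67* 0.13 without both libraries and 0.10 with macrophage markers (-0.73 to 0.13), and *Ccne1* 0.44 with limma. In the mean of the populations *Mki67* ranged from -0.18 to 0.032 without single libraries. For the genotype difference between sorts *Ccne1* became -0.15 with limma and *Mki67* -0.19 without both libraries (-0.051 to 0.38). The relation of *Mki67* to *Ptprc* in CD45+ libraries turned from -0.48 to 0.72 without the 2 farthest libraries. The causes were not tested. With 2 or 3 libraries in a group, the genotype comparisons had standard errors of up to 0.64 for the genes named, and a missed threshold does not show equal levels.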
